A study of Mus musculus with 7 samples.

Results

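The genes described here encode the 3 mouse AMP deaminases (Ampd1, Ampd2 and Ampd3), the enzymes that complete the purine nucleotide cycle (Adssl1 and Adsl), the adenylate and creatine kinases that buffer ATP in muscle (Ak1, Ckm and Ckmt2), and a pair of cytosolic 5′-nucleotidases (Nt5c1a and Nt5c2). They were measured in quadriceps muscle of 3-month-old C57BL/6 mice, in 4 WT and 3 AR113Q mice, with 1 single-dye Agilent mouse array per mouse and no pooling; the study states that its mice were male. AR113Q mice are a knock-in model of spinal and bulbar muscular atrophy (SBMA) and carry a humanized androgen receptor gene with an expanded CAG repeat, so every cell that expresses the receptor makes the polyglutamine form. The labels call the controls WT, whereas the study's results text describes control mice that carry a short repeat in the same knock-in gene, and the series' design text adds the letters NCD to the AR113Q group without spelling them out; these points could not be settled from the sources used here. Members were all non-control probes whose gene name, or current symbol through the RefSeq accession, was 1 of the 10 genes, out of 31131 gene names on the array. This gave 12 of the 39429 probes. Ampd2 and Nt5c2 had more than 1 probe, the other 8 genes had 1 each, and every member probe was a single spot with no outlier mark on any array.

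In a contracting muscle fiber, creatine kinase regenerates ATP from phosphocreatine, and adenylate kinase regenerates it from ADP while releasing AMP. AMP deaminase then converts AMP to IMP and ammonia, which keeps the adenylate kinase reaction running, and adenylosuccinate synthase and adenylosuccinate lyase return IMP to AMP with the use of aspartate and the release of fumarate. AMPD1 is known as the skeletal muscle isoform, AMPD2 as the isoform of liver and many other tissues and AMPD3 as the erythrocyte isoform, and 5′-nucleotidases remove nucleoside monophosphates from this pool by converting them to nucleosides.

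The probes on which the results turn are shown because 1 stretch of a transcript stands for each gene. The Ampd1 probe lies on the plus strand of mm9 at chr3:102902649-102902708, and the Ampd3 probe, of which the first 30 bases are given, on the plus strand at chr7:117954980-117955039. The probes of Ckm, Ckmt2 and the brighter probe of Nt5c2 have no position in the array annotation. Gene models on mm9 were not used here, so the position of a probe within exons is not given. Sequences are written 5′ to 3′ as the scanner files list them, with no part marked.
Ampd1: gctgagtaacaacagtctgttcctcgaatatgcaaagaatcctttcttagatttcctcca
Ampd3: acttctgttctatgttattatctaggactc
Ckm: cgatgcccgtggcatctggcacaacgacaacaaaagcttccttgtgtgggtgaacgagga
Ckmt2: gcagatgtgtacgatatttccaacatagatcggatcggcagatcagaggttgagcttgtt
Nt5c2: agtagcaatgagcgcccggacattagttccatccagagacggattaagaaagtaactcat
Over the 64 pairs of member probes of different genes, the longest run of bases that both probes of a pair held was 9, so the 3 AMP deaminases, and both creatine kinases, were read by sequences with little in common.

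Between 47.6% and 55.8% of probes were well above background per array, no spot was saturated, and 20987 probes passed the filter on dim probes (a probe had to stand well above its background on 3 or more arrays). Values below are log2 background-subtracted intensities after quantile normalization. A differentially expressed probe (DEG) had an absolute log2 difference of at least 1 and a limma p, adjusted by Benjamini-Hochberg over all 20987 probes, of at most 0.05. By this rule 24.8% of all probes were DEGs, 12.2% higher and 12.6% lower in AR113Q mice. All 12 member probes passed the filter, 11 of them with a signal clear of the background on all 7 arrays. Of the 12, 6 were DEGs, 3 higher and 3 lower, and nothing is read from this share because Ampd3 was chosen by its genotype difference on these same arrays, and the other genes for their place around it with results of these arrays known. The WT and AR113Q values did not overlap for 10 of the 12 probes, against 49.6% of all probes tested. Because bulk muscle was measured, fewer cells of a type and less RNA per cell cannot be told apart.

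**Figure D1:**
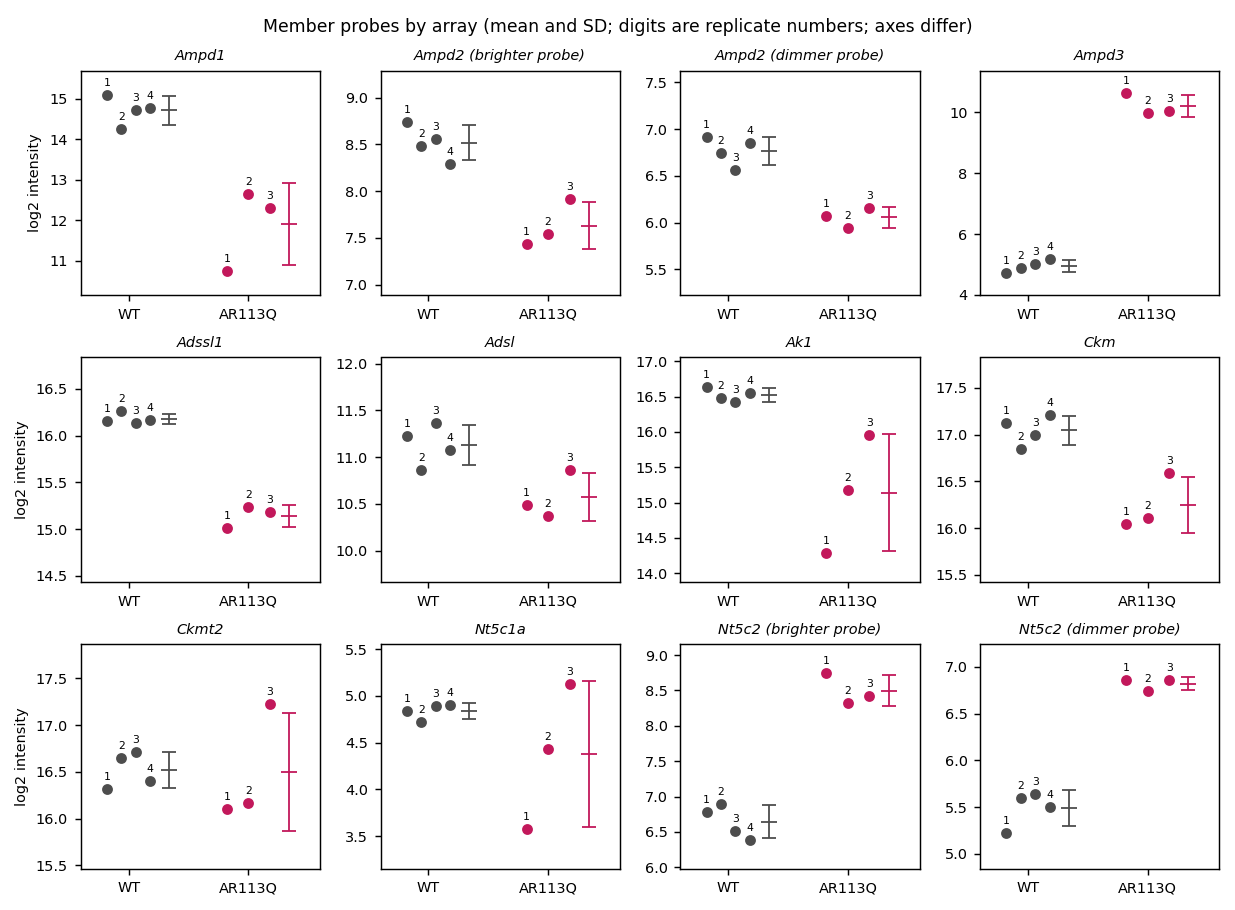
Log2 intensity of each of the 12 member probes on each array, with WT mice in grey and AR113Q mice in red; the bar beside the points is the mean and SD, digits are replicate numbers, and each panel has its own vertical axis. Ampd3 lies between 4.73 and 5.17 in WT and between 9.97 and 10.64 in AR113Q mice, Ampd1 moves the other way, and Ckmt2 and Nt5c1a overlap between genotypes.

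Among the AMP deaminases, which catalyze the deamination of AMP, the erythrocyte isoform was higher and the muscle isoform lower in AR113Q than in WT quadriceps. The Ampd3 probe read 4.73, 4.90, 5.03 and 5.17 in WT mice 1 to 4 and 10.64, 9.97 and 10.05 in AR113Q mice 1 to 3, on the log2 scale. All AR113Q mice were far above all WT mice, and the gap between genotypes was many times the range within WT (0.45) or within AR113Q mice (0.67). WT mice averaged 4.96 ± 0.19 (SD, n = 4) and AR113Q mice 10.22 ± 0.37 (SD, n = 3), a log2 difference of 5.27 (SE 0.21) or 38.5-fold. This was the 9th largest increase of the 20987 probes, and it is given as a description without a test because it chose the gene. Before normalization the background-subtracted intensity of the probe was 20.4 to 34.3 in WT mice and 1270 to 2010 in AR113Q mice, so the WT signal was dim, although well above background on 4 of 4 arrays. The size of the difference depended on how the background was treated. It was 3.28 (9.72-fold) with normexp correction, 3.43 without background subtraction and 2.77 (6.83-fold) in the authors' normalized values. The direction was the same in every setting tried.

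Ampd1, the isoform that myofibers normally use, read 15.10, 14.25, 14.71 and 14.78 in the WT mice and 10.75, 12.65 and 12.30 in the AR113Q mice. The highest AR113Q value lay below the lowest WT value, and AR113Q mouse 1 lay well below the other two. The log2 difference was -2.81 (SE 0.43), a 7.01-fold lower level in AR113Q mice, with a limma adjusted p of 0.00155. With AR113Q mouse 1 left out the log2 difference was -2.24, and among the settings with other background treatments and scalings it lay between -2.67 and -2.81.

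Ampd2 was measured by a pair of probes that shared no more than 6 consecutive bases. The brighter one read 8.74, 8.48, 8.56 and 8.29 in WT mice and 7.44, 7.54 and 7.92 in AR113Q mice, and the dimmer one read 6.91, 6.74, 6.56 and 6.85 against 6.07, 5.94 and 6.16. Neither probe overlapped between genotypes. The log2 differences were -0.88 (SE 0.18, limma adjusted p 0.0058) and -0.71 (SE 0.15, limma adjusted p 0.00737), both short of the fold threshold for a DEG. Without AR113Q mouse 3 the brighter probe had -1.03 (limma adjusted p 0.00395) and was a DEG. Both differences were smaller in size with other background treatments. The brighter probe had -0.56 with normexp correction, -0.59 without background subtraction and -0.47 in the authors' normalized values. The dimmer probe had -0.38, -0.41 and -0.26 in the same settings. Ampd3 was thus the AMP deaminase that was higher in AR113Q mice, and Ampd1 and both Ampd2 probes were lower.

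Erythroid markers were listed because AMPD3 is the isoform of red cells. Of the 8 markers, 4 were tested and 0 were DEGs by limma, with 1 at an unadjusted p of at most 0.05. Their mean log2 level was 9.96 to 12.79 in WT and 9.93 to 10.36 in AR113Q mice, and WT mice 3 and 4 had the most. Alas2, the first enzyme of erythroid heme synthesis, read 9.06, 9.11, 11.14 and 12.37 in WT mice and 9.35, 9.16 and 9.37 in AR113Q mice, so the AR113Q mice lay just above WT mice 1 and 2 and below WT mice 3 and 4. The defining markers Epb42, Ahsp and Klf1 did not pass the filter on dim probes. The part of red cells in the Ampd3 signal was not tested.

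Of the enzymes that return IMP to AMP, Adssl1 was a DEG and lower, and Adsl was lower by less. Adssl1 encodes the muscle form of adenylosuccinate synthase, and its probe (mm9, chr12:113879491-113879550) read 16.16, 16.26, 16.13 and 16.17 in WT mice and 15.01, 15.24 and 15.18 in AR113Q mice. Values within each genotype were close together, with a range of 0.12 in WT and 0.23 in AR113Q mice. The log2 difference was -1.04 (SE 0.14, limma adjusted p 0.000932), just past the fold threshold. It was no longer a DEG without AR113Q mouse 1 (-0.97), with normexp correction (-0.96), without background subtraction (-0.96), in the authors' normalized values (-0.93) or with array weights (-0.99). Adsl encodes adenylosuccinate lyase, which also acts in the synthesis of IMP. It read 11.23, 10.86, 11.36 and 11.08 in WT mice and 10.49, 10.37 and 10.86 in AR113Q mice, so that the highest AR113Q value met the lowest WT value at this rounding. The log2 difference was -0.56 (SE 0.19, limma adjusted p 0.0421), and this adjusted p did not hold up. It was 0.0875 with scaling to the 75th percentile, 0.071 with no filter on dim probes and 0.0752 to 0.126 when WT mouse 1, 3 or 4 or AR113Q mouse 1 or 2 was left out.

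Of the kinases that buffer ATP, Ak1 was a DEG, Ckm was lower but short of the fold threshold, and Ckmt2 overlapped between genotypes. Ak1, the cytosolic adenylate kinase of muscle, read 16.64, 16.48, 16.42 and 16.55 in WT mice and 14.29, 15.18 and 15.95 in AR113Q mice. The AR113Q mice were all lower than the WT mice but spread over 1.67 on the log2 scale, against 0.21 in WT mice. The log2 difference was -1.38 (SE 0.34, limma adjusted p 0.0125), and without AR113Q mouse 1 it was -0.95 and no longer a DEG. Ckm, the cytosolic creatine kinase of muscle, read 17.12, 16.85, 17.00 and 17.21 in WT mice and 16.04, 16.11 and 16.59 in AR113Q mice, with no overlap. The log2 difference was -0.80 (SE 0.19, limma adjusted p 0.0101), short of the fold threshold, while scaling to the 75th percentile in place of quantile normalization gave -1.26, which passed it.

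Ckmt2, the creatine kinase of sarcomeric mitochondria, read 16.32, 16.65, 16.71 and 16.40 in WT mice and 16.10, 16.17 and 17.23 in AR113Q mice. AR113Q mouse 3 was the highest of all arrays and the other two AR113Q mice the lowest. The log2 difference was -0.02 with a 95% interval of -0.67 to 0.64 (limma adjusted p 0.97), so these mice leave room for a change of up to this size in either direction.

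Levels of slow fiber markers differed widely between mice of 1 genotype. The mean log2 level of the 6 slow fiber markers was 6.39, 11.34, 11.17 and 6.61 in WT mice 1 to 4 and 6.82, 6.29 and 12.72 in AR113Q mice 1 to 3, and 0 of the 6 were DEGs by limma (0 at an unadjusted p of at most 0.05). Myh7, the slow myosin heavy chain, alone ranged from 4.95 to 12.56 among WT mice. The arrays with the most slow marker signal, from WT mice 2 and 3 and AR113Q mouse 3, were also those with the most Ckmt2 in their genotype. With this marker level as a covariate, chosen after the data had been seen, the fitted slope of Ckmt2 was 0.12 (SE 0.03) per unit of marker level, which did not pass the test (adjusted p 0.37), and its genotype difference was 0.02 (SE 0.18). In the same fit the differences of Ampd1 (-2.81), Ampd3 (5.26), Adssl1 (-1.03), Ak1 (-1.36) and Nt5c2 (1.85) were close to those without the covariate. This fit could hardly move them, since the marker level spread over similar ranges in both genotypes. Their fitted slopes were also small, from -0.02 for Ampd3 to 0.09 for Ak1. The part of fiber type in these differences was not tested. Of 8 fast fiber markers, each taken by its brightest probe, 1 was a DEG (Mylpf, -1.37). The dimmer probe of Pvalb, the calcium buffer parvalbumin, was a DEG as well (-1.12, limma adjusted p 0.00371), while its brighter probe had -0.13. The list had a mean log2 level of 16.15 to 16.39 in WT and 15.75 to 16.20 in AR113Q mice.

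**Figure D2:**
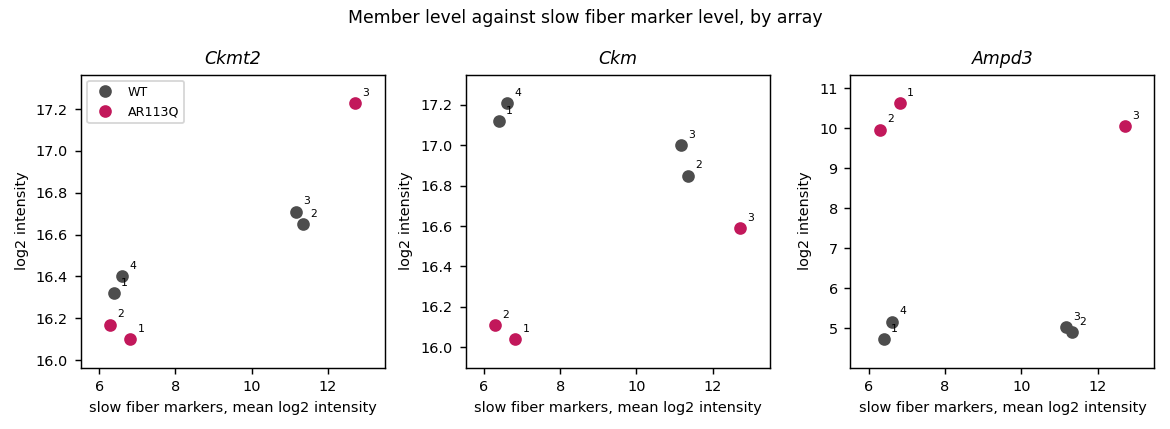
Log2 intensity of Ckmt2, Ckm and Ampd3 against the mean log2 intensity of 6 slow fiber markers, 1 point per mouse, with WT in grey and AR113Q in red and digits giving the replicate number. Ckmt2 is highest in WT mice 2 and 3 and AR113Q mouse 3, where slow markers are high, whereas Ampd3 separates the genotypes at every marker level.

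The 5′-nucleotidases were read by 3 probes. Nt5c2, which prefers IMP and GMP, was higher in AR113Q mice by both probes. The brighter probe read 6.78, 6.89, 6.51 and 6.39 in WT mice and 8.74, 8.32 and 8.42 in AR113Q mice. The dimmer probe (mm9, minus strand, chr19:46963075-46963134) read 5.22, 5.60, 5.64 and 5.50 against 6.86, 6.74 and 6.86. All AR113Q values lay above all WT values for both probes, with log2 differences of 1.85 (SE 0.19, 3.61-fold, limma adjusted p 0.000309) and 1.33 (SE 0.16, 2.52-fold, limma adjusted p 0.000576). As with Ampd3, the differences were smaller when dim signals were treated otherwise, at 0.93 and 0.35 in the authors' normalized values, where neither was a DEG. The dimmer probe also lost the call with normexp correction (0.56) and without background subtraction (0.60), where the brighter one kept it. Nt5c1a, which prefers AMP and yields adenosine, was dim. Its probe (mm9, chr4:122893248-122893307) read 4.84, 4.72, 4.89 and 4.90 in WT mice and 3.57, 4.43 and 5.13 in AR113Q mice and was not well above background in AR113Q mouse 1. The genotypes overlapped, and the log2 difference was -0.47 with a 95% interval of -1.21 to 0.27 (limma adjusted p 0.271). It rested on single mice, at -0.06 without AR113Q mouse 1 and -0.84 (limma adjusted p 0.0289) without AR113Q mouse 3.

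**Figure D3:**
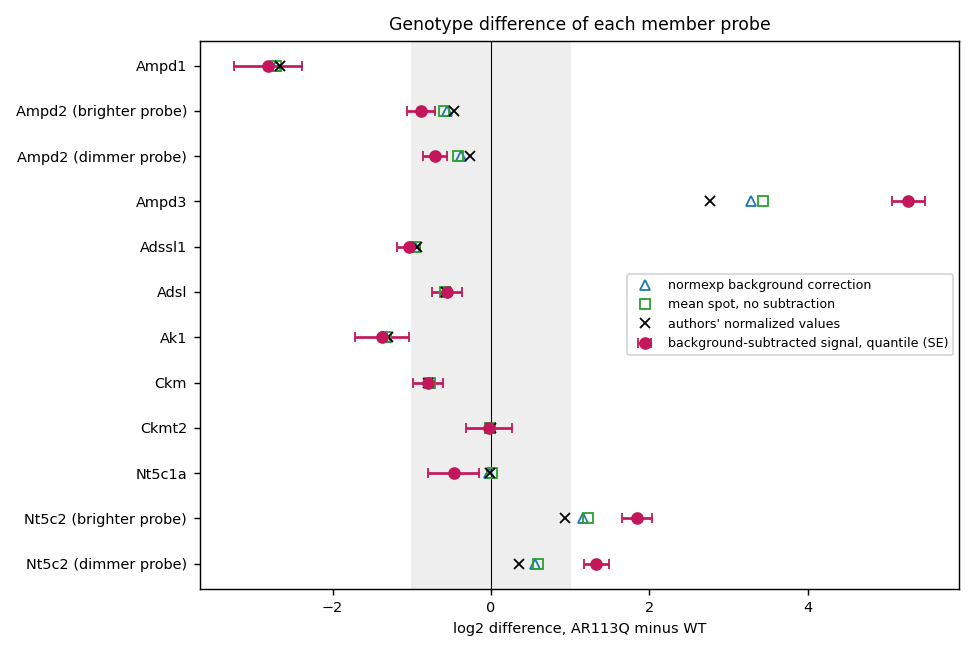
Log2 difference (AR113Q minus WT) of each member probe, with the fitted SE for background-subtracted, quantile normalized signal and with the values of 3 other background treatments; the grey band marks absolute differences under 1. The bright probes of Ampd1, Adssl1, Ak1, Ckm and Ckmt2 hardly move between treatments, while Ampd3 falls from 5.27 to between 2.77 and 3.43. The differences of both Nt5c2 and both Ampd2 probes also become smaller in size.

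The 3 AR113Q mice were not equally far from WT. AR113Q mouse 1 had the value farthest from WT, in the direction of the genotype difference, for 10 of the 12 member probes, AR113Q mouse 2 for 2 (the dimmer Ampd2 probe and Adsl) and AR113Q mouse 3 for 0. Over all kept probes the share for AR113Q mouse 1 was 48.6%, and over all DEG probes it was 55.6%. Mouse 1 shared slide 2 with WT mouse 2, and the difference between these 2 arrays was 5.75 for Ampd3, -3.49 for Ampd1, -2.19 for Ak1, -1.25 for Adssl1 and 1.85 for the brighter Nt5c2 probe. This was the only slide that held both genotypes, and with 1 mouse of each it cannot tell genotype from mouse. Markers of other cell types also differed between genotypes. Of 5 fibroblast markers 3, the collagens Col1a1, Col1a2 and Col3a1, were DEGs and lower, while Dcn had 0.41 and Pdgfra -0.27. The list had a mean log2 level of 12.99 to 13.44 in WT and 10.40 to 11.72 in AR113Q mice, lowest in mouse 1. Of 4 adipocyte markers 3 were DEGs and lower (9.49 to 10.71 against 7.75 to 8.97), and of 6 macrophage markers 3 were lower and 1 higher (8.62 to 9.47 against 8.22 to 8.81). Of 4 Schwann cell markers 1 was lower, and 0 of 4 endothelial and 0 of 4 smooth muscle markers were DEGs by limma, although 1 and 2 of them had an unadjusted p of at most 0.05. The part of these markers in the differences of the members was not tested.

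The neighbouring purine and phosphagen genes formed 10 lists of 77 genes, of which 67 had a tested probe. Each gene was taken by its brightest kept probe. Of the 67, 17 (25.4%) were DEGs, 3 higher and 14 lower, against 24.3% of all genes taken in this way. Their median log2 difference was -0.09, against -0.01 over all genes. The share called was thus near the background, and the members of single lists are described below.

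**Figure D4:**
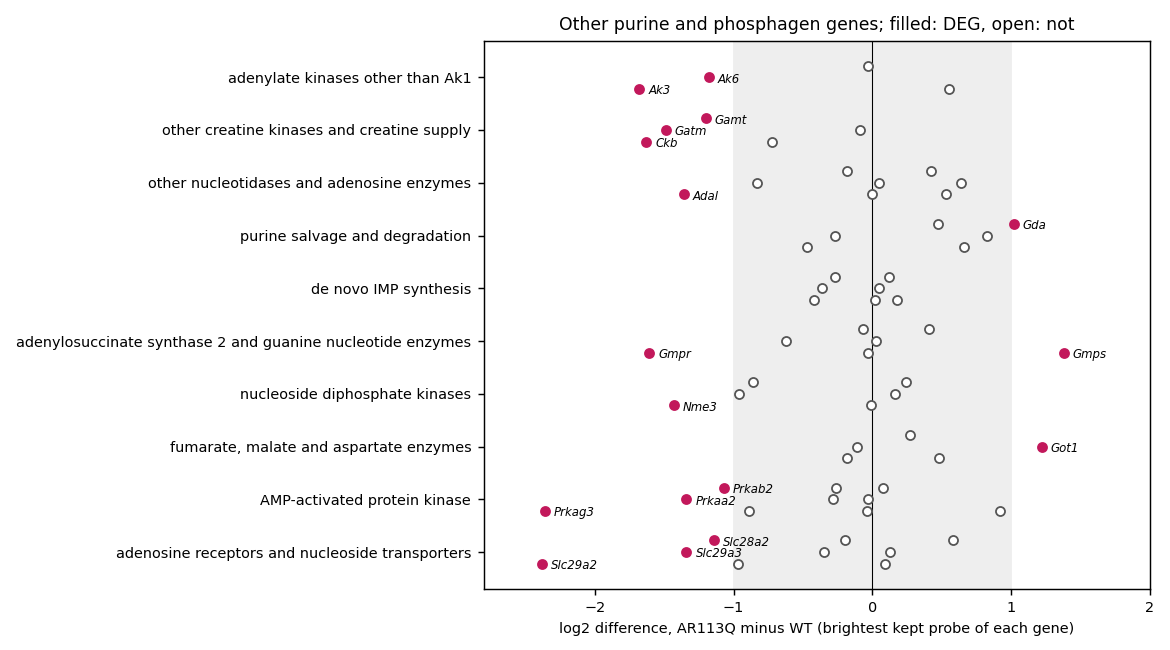
Log2 difference (AR113Q minus WT) of the 67 tested genes in the 10 lists of other purine and phosphagen genes, 1 point per gene by its brightest kept probe, filled where the gene was a DEG; the grey band marks absolute differences under 1. The 14 filled points on the left include 3 genes each of the creatine kinase and supply list, AMP-activated protein kinase and nucleoside transport. The 3 on the right are Gda, Gmps and Got1.

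Of the adenylate kinases other than Ak1, 4 of 8 were tested and 2 were lower. Ak3, the GTP-using kinase of the mitochondrial matrix, read 11.63, 11.50, 11.83 and 11.47 in WT mice and 9.56, 9.92 and 10.30 in AR113Q mice (log2 difference -1.68, SE 0.20, limma adjusted p 0.000605). Ak6, a nuclear adenylate kinase, had a difference of -1.18. Of the 5 other creatine kinase and creatine supply genes, all tested, 3 were lower and the median difference was -1.20. Ckb, the brain-type creatine kinase, read 8.78, 8.03, 8.22 and 8.27 in WT mice and 6.76, 6.61 and 6.70 in AR113Q mice (-1.63, SE 0.20, limma adjusted p 0.000606), and its other probe gave -1.30. Gatm and Gamt, which carry out both steps of creatine synthesis, had differences of -1.49 and -1.20. Gatm was dim, at 4.35, 4.04 and 3.84 in AR113Q mice, and was well above background in 2 of these 3 mice. Slc6a8, the creatine transporter, read 12.16, 12.69, 12.42 and 12.32 against 11.15, 11.95 and 11.92 and did not pass the fold threshold (-0.72, SE 0.24).

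Of 8 tested nucleotidases and adenosine enzymes, 1 was lower and the median difference was 0.03. This was Adal, a relative of adenosine deaminase, at -1.36 (SE 0.23, limma adjusted p 0.00224). Nt5e, the ecto-5′-nucleotidase CD73, had a difference of 0.64 (SE 0.16, limma adjusted p 0.0129), short of the fold threshold. Of 6 tested salvage and degradation genes, 1 was higher. Gda, the guanine deaminase, read 10.10, 10.40, 10.37 and 11.33 in WT mice and 11.00, 11.83 and 11.87 in AR113Q mice, with overlap between genotypes (1.02, SE 0.34, limma adjusted p 0.0391), and its other probe gave 0.45. Xdh, the xanthine dehydrogenase that makes uric acid, had a difference of 0.83 (SE 0.22, limma adjusted p 0.0154) and Aprt, the adenine salvage enzyme, of 0.66, and neither was a DEG.

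Of 7 tested genes of de novo IMP synthesis, 0 were DEGs by limma with their brightest probe (2 at an unadjusted p of at most 0.05), and the median difference was 0.02. Ppat, the amidotransferase that commits to the pathway, had 0.02 by this probe and -1.95 by its other one, so that the call depended on the probe. The other probe was the brighter one in WT mice (mean 8.27 against 8.03). It ranked as dimmer over all arrays through its AR113Q values (mean 6.31), so the genotype difference itself shaped this choice of probe. Of 7 tested genes around guanine nucleotides, 1 was lower and 1 higher. Gmpr, the GMP reductase that forms IMP, read 11.33, 11.15, 11.42 and 11.32 in WT mice and 8.95, 9.95 and 10.18 in AR113Q mice (-1.61, SE 0.28, limma adjusted p 0.00277). Gmps, the GMP synthase, had 1.38 by its brightest probe, but -0.01 and 0.39 by the others. Adss, the form of adenylosuccinate synthase found outside muscle, had 0.03 (SE 0.18), where the muscle form Adssl1 had -1.04. Of 6 nucleoside diphosphate kinases, 1 was a DEG by its brightest probe: Nme3, bound to the mitochondrial outer membrane, at -1.43 (SE 0.20, limma adjusted p 0.00109). Nme6 had -0.96 by its brighter probe (limma adjusted p 0.00117) and -1.01 by the other, which was a DEG, and Nme7 had -0.86 (limma adjusted p 0.0251). Nme1 had -0.01 by its brighter probe and -2.47 by the other.

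Among the enzymes that handle the fumarate and aspartate of the cycle, 1 of 5 was higher. Got1, the cytosolic aspartate aminotransferase, read 13.51, 13.88, 14.06 and 13.54 in WT mice and 14.66, 14.66 and 15.56 in AR113Q mice (1.22, SE 0.26, limma adjusted p 0.0071). Fh1, the fumarate hydratase, had -0.11.

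AMP-activated protein kinase senses the AMP that these reactions set. Its list held 7 subunit genes, of which 3 were lower, and the 3 genes of the upstream LKB1 complex (Stk11, Cab39 and Strada), which were not DEGs. Prkag3, the gamma subunit found mainly in fast muscle, read 10.51, 9.84, 10.21 and 10.37 in WT mice and 7.52, 8.59 and 7.52 in AR113Q mice (-2.36, SE 0.30, limma adjusted p 0.000692). Prkaa2, the main catalytic subunit of muscle, had -1.34 (SE 0.18, limma adjusted p 0.000858), and Prkab2, its beta subunit partner, had -1.07. Of the other subunits, Prkag2 had -0.89 (SE 0.21, limma adjusted p 0.0109), Prkaa1 -0.28, Prkag1 -0.04 and Prkab1 0.92 (SE 0.20, limma adjusted p 0.00679), none of them a DEG. Of 9 tested adenosine receptors and nucleoside transporters, 3 transporters were called lower, and for 2 of them most AR113Q arrays were not well above background. Slc29a2, an equilibrative nucleoside transporter, read 7.14, 7.14, 7.13 and 7.13 in WT mice and 4.73, 4.17 and 5.35 in AR113Q mice (-2.38, SE 0.26, limma adjusted p 0.000382). Slc29a3 was not well above background in any AR113Q mouse and was at least 2.08-fold lower there, by a bound that sets each AR113Q array at the higher of its own signal and its lowest signal well above background. Its genotypes overlapped (4.53 in AR113Q mouse 1 against 4.52 and 4.51 in WT mice 3 and 4), and it was well above background in 3 of 4 WT mice. Slc28a2 was well above background in 1 of 3 AR113Q mice, so the size of its fitted difference of -1.14 rests on dim signals. Slc29a1, the equilibrative transporter with the brightest probe, had 0.13. The adenosine receptors were not among the DEGs.

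Profiles like that of Ampd3 were sought among the 17069 probes well above background on all 7 arrays, by the root mean square difference of mean-centred log2 values over the arrays. The nearest were Gm9465 (0.41), Epop (0.53), Aspg, Maff and Cdkn1a (each 0.61), with log2 differences of 4.93, 4.47, 5.28, 4.28 and 5.20. Cdkn1a encodes the cell cycle inhibitor p21 and Maff a small Maf transcription factor. The genes nearest to Ampd1 were Asph (0.15), Camk2a (0.19), Itga4 and Pcolce (each 0.23) and Mkks (0.25), with log2 differences of -2.82, -2.75, -2.75, -3.03 and -2.74. Camk2a encodes a calcium/calmodulin-dependent kinase, and Asph a hydroxylase whose locus also yields junctin of the sarcoplasmic reticulum. Each of these genes was picked for its likeness, and the likeness rests on 7 arrays that differ mainly by genotype.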

How the data were processed

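Quadriceps RNA of 7 mice was hybridized to single-dye (Cy3) Agilent arrays, 1 array per mouse. The authors read the scans with Feature Extraction 10.7.3.1 and deposited scanner files with a background-subtracted intensity, a mean spot intensity and a local background per spot, not normalized between arrays. The authors also deposited log2 values, which their methods describe as quantile normalized, for 18592 probes, all found in the scanner files. Their medians were 8.92 to 8.93 per array, and they correlated with the mean spot intensity at 0.991 to 0.999. Background subtraction widens log2 differences between dim spots, so dim probes depend on this step most.

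Background-subtracted intensities were log2 transformed, outlier spots (94 to 151 per array) were dropped, the 43020 non-control spots were quantile normalized and spots of a probe averaged. A probe was kept if it stood well above background on 3 or more arrays. Symbols came from the scanner files and from RefSeq accessions (GRCm38.p6 gene table, names only; 28330 probes matched). Positions of probes were read from the scanner files, whose build is mm9. Genotypes were compared with limma 3.58.1 (lmFit and eBayes, R 4.3.3), Benjamini-Hochberg adjustment running over all kept probes; the authors' methods name quantile normalization, limma's eBayes and a false discovery rate, while the filter and the adjustment over kept probes were set here. The p-values set the genotype difference against the spread between these mice, moderated by limma over all probes, and the number of arrays limits their precision. Slides 1 and 4 held only WT arrays and slides 3 and 5 only AR113Q arrays. Differences between slides are therefore part of the tested difference. The procedure was tested on simulated data. Tables and figures were made with pandas 2.3.3 and matplotlib 3.10.9 in Python 3.11.15.

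The members, lists and markers were chosen with earlier results of these data known. Every member probe is reported, while a few genes of the lists are left unreported. For each list the rule named at most 2 genes with the largest rise and 2 with the largest fall among DEGs, and enzymes that define the list, and for Ampd3 and Ampd1 the 5 genes of nearest profile. Gamt, Prkab2 and Slc28a2 fell outside this rule and were named after their values were seen, to complete counts of 3, as were the non-DEGs given with values in the lists. The alternatives tried were 75th percentile scaling, normexp correction (offset 50), mean spot intensity, the authors' log2 values, no filter and a filter on all 7 arrays, outlier spots kept, an intensity trend, slide as a random or fixed effect, a replicate block, array weights, the brightest probe per gene, no fold threshold and each array left out. Slow fiber marker level as a covariate was added after the data were seen. All arrays had 1 scan date, and 5 slides were used.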

Additional observations from a re-analysis of the deposited data

How the results depend on the processing

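Of 188 values of the 9 other member genes under the alternatives, 169 kept their direction and their side of the DEG thresholds, 11 lost the call, 2 gained it and 6 changed sign. The changes of sign were those of Ckmt2 and Nt5c1a, which were not called: Nt5c1a had 0.01 with mean spot intensity, and Ckmt2 had 0.02 with the slow fiber covariate and -0.38 to 0.18 when single arrays were left out. Adssl1 lost the call under 6 settings, always through the fold threshold or, with slide as a fixed effect, the adjusted p. The DEG probes over all probes were 5207, and 2075 with normexp, 2264 with mean spot intensity and 1592 of fewer probes tested with the authors' values. With the same alternatives Ampd3 had 3.28, 3.43 and 2.77, and the DEG probes of the other pathway genes were 13 with normexp and 10 with the authors' values, against 22. The member DEG probes were 3 with the authors' values, against 6. Dropping the fold threshold gave 9200 probes in all and 10 member probes. Slide as a fixed effect compares WT mouse 2 with AR113Q mouse 1 and leaves 1 residual degree of freedom. It gave 5.75 for Ampd3 and 0 DEGs by limma over all probes, among members (0) and among other pathway genes (0), with 7928 probes at an unadjusted p of at most 0.05. Leaving out single arrays gave 4453 to 5562 DEG probes in all, 4 to 7 among members, 19 to 22 among other pathway genes and 5.06 to 5.39 for Ampd3. Same-numbered mice shared only a number, since their deviations from the genotype means correlated at 0.04, -0.02 and 0.16. The replicate block gave 5188 DEG probes, 6 among members and 22 among other pathway genes, and 5.34 for Ampd3, and it changed no DEG call of a member, while the adjusted p of Adsl was 0.0662 under it.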
